A study of Saccharomyces cerevisiae with 26 samples.

Results

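Ribosome occupancy, the amount of ribosome footprints on a transcript relative to the level of that transcript, was compared between yeast lacking GIR2 (gir2Δ) and the wild type (wt). The members were the cultures with a library of each assay, matched by strain, replicate number and batch tag. There were 4 gir2Δ and 4 wt cultures, so 16 of the 26 libraries of the series were compared. The others, from a strain lacking PUB1 and a wt RNA-Seq library without a partner, entered the gene filter and the normalisation. Each strain was the haploid BY4742 (MATalpha his3delta1 leu2delta0 lys2delta0 ura3delta0), and gir2Δ carried a KanMX cassette in place of GIR2, introduced by transformation of that parent. The cells had grown exponentially in YPD at 30 degrees without drug, and cycloheximide, which arrests elongating ribosomes, was present from lysis onwards. One portion of each lysate gave oligo(dT)-selected RNA for RNA-Seq, and another gave the RNA left in monosomes after ribonuclease I for Ribo-Seq. The gir2Δ cultures 1, 2 and 3 belonged to batch 2 and culture 4 to batch 1. The wt cultures 1 and 4 belonged to batch 1 and cultures 2 and 3 to batch 4. Batch 2 held no wt culture and batch 4 no gir2Δ culture, so strain and batch cannot be told apart for 3 of the 4 gir2Δ cultures. The labels do not say whether the gir2Δ cultures came from more than 1 transformant, or whether replicates were grown separately, so the p-values measure the spread between these samples, which may be technical.

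Gir2 is the partner of the GTPase Rbg2, and the related GTPase Rbg1 pairs with Tma46. Gir2 shares with Gcn2 and Yih1 an RWD domain, the module through which these proteins bind Gcn1. Gcn1 sits on collided ribosomes, and starved cells need it for phosphorylation of eIF2 by Gcn2. When Gcn2 is active, general initiation falls while translation of GCN4 mRNA increases, and Gcn4 in turn switches on amino acid biosynthesis genes. Occupancy cannot tell faster initiation from slower elongation, since either gives more footprints per transcript.

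Counts on the gene-sense strand totalled 2217490 to 3502037 per RNA-Seq library and 1362346 to 2777294 per Ribo-Seq library, and these numbers limit the precision of each value by counting error alone. GIR2 had 375 to 492 RNA-Seq counts in wt and 1 to 16 in gir2Δ, and 120 to 184 Ribo-Seq counts in wt against 0 to 4 in gir2Δ, so its own occupancy was not read. The alpha pheromone genes MF(ALPHA)1 and MF(ALPHA)2 had at least 797 counts in each library, and the a pheromone genes MFA1 and MFA2 at most 6. The other a-type markers, STE2, BAR1 and STE6, had at most 48. The alpha-type surface genes STE3 and SAG1 stood apart in the wt cultures of batch 4, with 14 to 183 counts there and 435 to 3060 in the other cultures. Over the tested genes, occupancy differed between wt of batch 4 and wt of batch 1 with an SD of 0.59 on the log2 scale, against 0.27 for gir2Δ minus wt of batch 1. The comparison with wt of batch 1 is therefore given first, and the one with all 4 wt cultures beside it. The libraries were bulk and scaled to a common total, so fewer cells with a transcript and less of it per cell cannot be told apart, and a change in all transcripts alike would not be seen.

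Against wt of batch 1, 15 of 4473 genes changed in occupancy (0.335%, edgeR quasi-likelihood test of the interaction of strain and assay with a term for each culture, Benjamini-Hochberg adjusted p under 0.05). Occupancy rose for 11 genes (0.246%) and fell for 4 (0.0894%). The higher ones were DED1, SRO9, YBR238C, TOH1, RSP5, CAR2, YOR1, PMA1, SEC14, NOP58 and SPT6, with changes of 0.53 to 1.27 on the log2 scale. The lower ones were snR86, PNS1, RIB5 and RPL35B, from -0.79 to -1.60. Before adjustment, 540 genes (12.1%) had a p under 0.05, 244 higher and 296 lower. Against all 4 wt cultures 9 genes were called (0.201%), 7 higher (0.156%) and 2 lower (0.0447%), and each of the 9 was among the 15. CAR2, YOR1, PMA1, SPT6, snR86 and RIB5 were the ones not called there. Without the culture terms 9 of the 15 genes were called, CAR2, NOP58, PNS1, SPT6, YBR238C and YOR1 being lost, and against all wt only DED1 and SRO9 remained. Other tools were run on wt of batch 1. DESeq2 called 13 genes, 9 of the 15 with HYP2, HSP60, HXT2 and RPL19B, and limma 7, all among the 15. DESeq2 gave no adjusted p to PNS1, RIB5, snR86, TOH1, YBR238C and YOR1, so it could not call them. Members of the gene lists below without an adjusted p in DESeq2 count as not called, and their number was not computed. Gene coordinates are those of RefSeq, assembly R64.

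**Figure D1:**
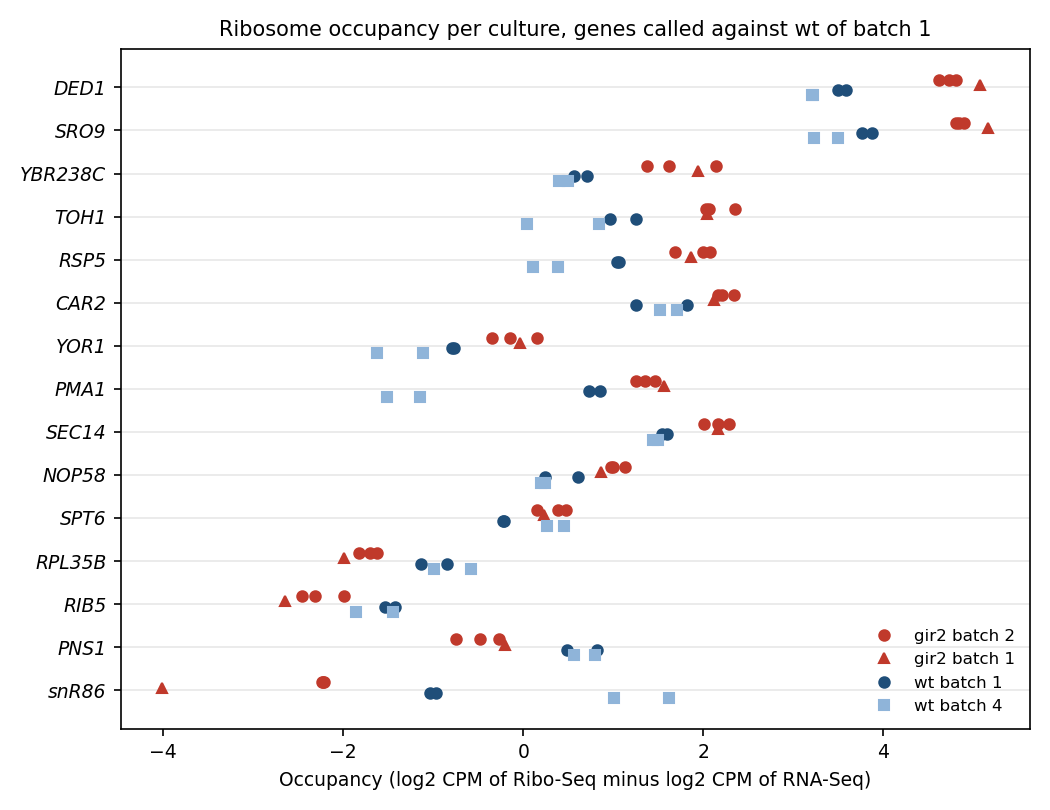
Occupancy of the 15 called genes in each culture, as log2 CPM of Ribo-Seq minus log2 CPM of RNA-Seq on the x axis, with gir2Δ in red (batch 2 circles, batch 1 triangles) and wt in blue (batch 1 dark circles, batch 4 light squares). The 4 gir2Δ cultures lie clear of both wt cultures of batch 1 for each gene, while for SPT6 they overlap with wt of batch 4.

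The largest rise among the called genes was that of DED1 (YOR204W, chrXV:722911-724725), which encodes the DEAD-box RNA helicase that unwinds 5′ leaders during scanning. Its occupancy was 4.61, 4.81, 4.73 and 5.07 in gir2Δ cultures 1 to 4, and 3.59, 3.22, 3.20 and 3.499 in wt cultures 1 to 4. The gir2Δ and wt cultures did not overlap, and the change was 1.27 against wt of batch 1 (SE 0.14, edgeR adjusted p 9.85e-06) and 1.44 against all wt (SE 0.13, edgeR adjusted p 0.000666). The difference lay in RNA-Seq, where DED1 stood at 58.1, 50.5, 63.3 and 47.8 normalised CPM in gir2Δ and at 118, 153, 153 and 128 in wt, in the order of the cultures. Ribo-Seq gave 1441, 1436, 1706 and 1634 CPM in gir2Δ and 1430, 1432, 1416 and 1460 in wt, so the footprint levels of the groups overlapped.

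SRO9 (YCL037C, chrIII:57374-58678) encodes an RNA-binding protein of the La-motif family that associates with translating ribosomes. It had an occupancy of 4.84, 4.80, 4.89 and 5.17 in gir2Δ cultures 1 to 4, and of 3.88, 3.495, 3.23 and 3.76 in wt cultures 1 to 4. The groups did not overlap, with a change of 1.15 against wt of batch 1 (SE 0.16, edgeR adjusted p 0.000450) and 1.38 against all wt (SE 0.16, edgeR adjusted p 0.00499). In RNA-Seq SRO9 stood at 15.4 to 20.2 CPM in gir2Δ and at 41.6 to 53.6 in wt. Its Ribo-Seq level overlapped, at 497 to 626 CPM in gir2Δ and 509 to 623 in wt. Of the 19 alternative fits against wt of batch 1, 18 called DED1 and SRO9, the exception being the one with all 26 libraries. Against all wt, all 18 alternative fits called both.

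RSP5 (YER125W, chrV:410189-412618) encodes the NEDD4-family ubiquitin ligase that marks plasma membrane transporters for endocytosis. Its occupancy was 1.99, 2.07, 1.69 and 1.87 in gir2Δ cultures 1 to 4, 1.07 and 1.04 in wt cultures 1 and 4 of batch 1, and 0.11 and 0.38 in wt cultures 2 and 3 of batch 4. All gir2Δ cultures were above all wt cultures, with a rise of 0.85 over wt of batch 1 (SE 0.13, edgeR adjusted p 0.000901). RSP5 transcripts were at 73.3 to 93.6 CPM in gir2Δ and at 126 to 162 in wt. Footprints were at 303 to 344 CPM in gir2Δ and at 340 and 330 in wt of batch 1, but at 161 and 164 in wt of batch 4. 

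YBR238C (chrII:695107-697302), a paralogue of the mitochondrial RNA-binding protein gene RMD9, had few RNA-Seq reads, at 12.2 to 19.3 CPM in gir2Δ and 23.1 to 47.2 in wt. Its occupancy was 1.62, 2.14, 1.38 and 1.94 in gir2Δ cultures 1 to 4 and 0.40 to 0.71 in wt, a rise of 1.14 over wt of batch 1 (SE 0.24, edgeR adjusted p 0.0338). NOP58 (YOR310C, chrXV:896825-898360), a core protein of box C/D small nucleolar ribonucleoproteins, was at 1.13, 1.00, 0.97 and 0.86 in gir2Δ and at 0.61, 0.24, 0.20 and 0.24 in wt cultures 1 to 4. Its rise was 0.57 (SE 0.12, edgeR adjusted p 0.0353), and in both genes all gir2Δ cultures exceeded all wt cultures. SEC14 (YMR079W, chrXIII:424989-426059), the phosphatidylinositol and phosphatidylcholine transfer protein, was at 2.01 to 2.29 in gir2Δ and 1.44 to 1.60 in wt, a rise of 0.59 (SE 0.12, edgeR adjusted p 0.0224). Its transcript level was 104 to 119 CPM in gir2Δ and 160 to 215 in wt.

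TOH1, PMA1 and YOR1 encode proteins of the cell surface or plasma membrane. TOH1 (YJL171C, chrX:99704-100894) is a GPI-anchored cell wall protein, PMA1 (YGL008C, chrVII:479910-482666) the proton pump that keeps the membrane potential, and YOR1 (YGR281W, chrVII:1052824-1057257) an ABC transporter for drug export. PMA1 occupancy was 1.26, 1.35, 1.46 and 1.56 in gir2Δ cultures 1 to 4, 0.85 and 0.74 in wt cultures 1 and 4, and -1.51 and -1.14 in wt cultures 2 and 3. The rise over wt of batch 1 was 0.61 (SE 0.12, edgeR adjusted p 0.0255). In the comparison with all wt PMA1 stood at 1.64 with an SE of 0.45 and was not called (edgeR adjusted p 0.203). TOH1 was at 2.35, 2.06, 2.03 and 2.05 in gir2Δ and 0.96, 0.043, 0.84 and 1.25 in wt, a rise of 1.04 (SE 0.17, edgeR adjusted p 0.00325). YOR1 was at -0.35 to 0.15 in gir2Δ, -0.79 and -0.76 in wt of batch 1 and -1.62 and -1.11 in wt of batch 4, a rise of 0.69 (SE 0.15, edgeR adjusted p 0.0492). For these 3 genes the wt cultures of batch 4 were far below those of batch 1 in each assay. PMA1 footprints, for example, were at 425 and 456 CPM in batch 4 and at 9105 and 8549 in batch 1.

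CAR2 (YLR438W, chrXII:1012501-1013775) encodes ornithine transaminase, an enzyme of arginine breakdown, and SPT6 (YGR116W, chrVII:720409-724764) a histone chaperone of transcription elongation. CAR2 occupancy was 2.16, 2.21, 2.34 and 2.12 in gir2Δ and 1.82, 1.51, 1.71 and 1.25 in wt cultures 1 to 4, a rise of 0.70 (SE 0.14, edgeR adjusted p 0.0256). Its transcripts were lower in gir2Δ, at 59.9 to 67.8 CPM against 91.1 to 183 in wt, and so were its footprints against wt of batch 1, at 272 to 317 CPM against 374 and 437. The rise of CAR2 was 0.39 without wt culture 4, where it was not called, and 0.97 without wt culture 1. SPT6 was at 0.15 to 0.48 in gir2Δ, at -0.21 and -0.22 in wt of batch 1 and at 0.27 and 0.45 in wt of batch 4, so the groups overlapped once batch 4 was counted. Its rise of 0.53 over wt of batch 1 (SE 0.115, edgeR adjusted p 0.0417) became 0.24 against all wt (SE 0.16, edgeR adjusted p 0.494).

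Among the lower genes, RPL35B (YDL136W, chrIV:217600-218367) is 1 of 2 gene copies for a large-subunit ribosomal protein, and only uniquely mapped reads were counted, so its counts are uncertain. Its occupancy was -1.70, -1.82, -1.63 and -1.99 in gir2Δ cultures 1 to 4 and -0.84, -0.58, -0.99 and -1.13 in wt. The groups did not overlap, and the change was -0.79 (SE 0.13, edgeR adjusted p 0.00325). In this gene transcripts were higher than in wt of batch 1, at 352 to 395 CPM against 253 and 285, and footprints were lower, at 98.6 to 113 against 141 and 129. RIB5 (YBR256C, chrII:727386-728102), the riboflavin synthase, showed the same arrangement, with 140 to 151 CPM in gir2Δ RNA-Seq against 121 and 129, and 23.5 to 34.5 in Ribo-Seq against 44.4 and 43.9. RIB5 occupancy was -2.64 to -1.99 in gir2Δ and -1.86 to -1.43 in wt, and it fell by 0.85 (SE 0.18, edgeR adjusted p 0.0369).

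PNS1 (YOR161C, chrXV:636939-638558), a membrane protein of the choline transporter-like family, was at -0.27, -0.74, -0.48 and -0.20 in gir2Δ and at 0.82, 0.57, 0.80 and 0.49 in wt cultures 1 to 4. It fell by 1.08 (SE 0.185, edgeR adjusted p 0.00432). PNS1 transcripts overlapped, at 37.6 to 60.2 CPM in gir2Δ and 49.0 and 71.0 in wt of batch 1, while footprints were at 30.0 to 47.6 CPM against 87.3 and 99.95. The fourth gene, snR86, is a small nucleolar RNA with no reading frame, so its Ribo-Seq reads are RNA that remained in the monosome fraction and not footprints of translation. They numbered 21, 19, 28 and 6 in gir2Δ, 90 and 67 in wt of batch 1, and 182 and 335 in wt of batch 4.

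**Figure D2:**
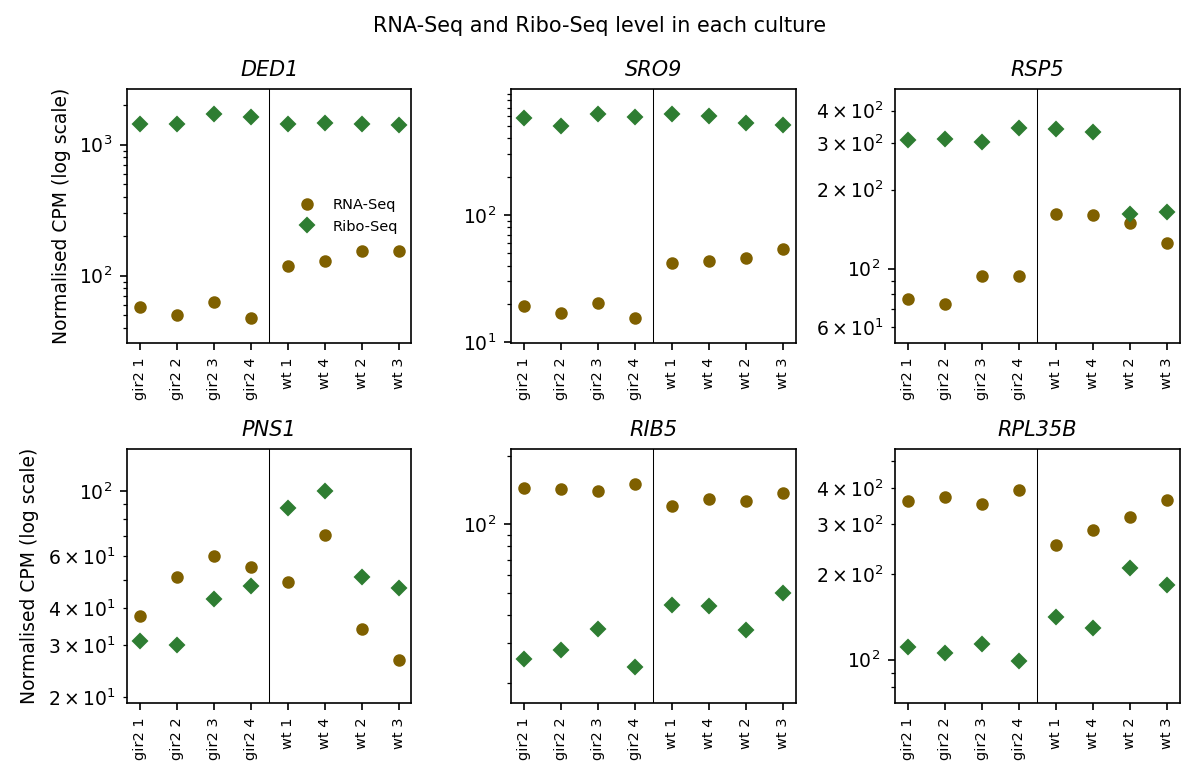
Normalised CPM on a log axis for 6 of the called genes in each culture, with RNA-Seq as brown circles and Ribo-Seq as green diamonds, gir2Δ left and wt right of the line (wt 1 and wt 4 are batch 1, wt 2 and wt 3 batch 4). For DED1, SRO9 and RSP5 the RNA-Seq points of gir2Δ lie below those of wt, and for RPL35B the Ribo-Seq points lie below those of wt.

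The assay in which the called genes differed was then examined. In all 11 genes with higher occupancy, RNA-Seq of the 4 gir2Δ cultures was below both wt cultures of batch 1, against 12.9% of all tested genes. Their Ribo-Seq levels overlapped with wt in 8 genes, were above in NOP58 and YOR1, and were below in CAR2. The median difference of the 11 genes from wt of batch 1 was -0.65 in RNA-Seq and 0.087 in Ribo-Seq. In the 4 genes with lower occupancy, Ribo-Seq of gir2Δ was below both wt cultures, against 13.4% of all tested genes. Their RNA-Seq was above wt in RIB5 and RPL35B and overlapped in PNS1 and snR86, with a median of 0.11 in RNA-Seq and -0.98 in Ribo-Seq. Against all 4 wt cultures this was less uniform. RNA-Seq of gir2Δ then overlapped with wt in PMA1, SPT6, TOH1 and YOR1 among the higher genes. Ribo-Seq then overlapped in PNS1 and RIB5 among the lower genes, and stayed below wt in RPL35B and snR86. These shares describe genes chosen by occupancy, to which each assay contributes, and are not tests. Another wt RNA-Seq library of batch 1, replicate 5, has no Ribo-Seq partner and was a sample only in the fit with all 26 libraries. It also entered the gene filter, the normalisation, and the corrections for batch and coding length used in alternative fits. It lay above all 4 gir2Δ cultures in 10 of the 11 genes, NOP58 being the exception, with 86.9 CPM of DED1, 42.5 of SRO9 and 164 of RSP5. The share of all tested genes for which this held was not computed. The 11 genes were chosen in part by RNA-Seq of these gir2Δ cultures, so the count is a description.

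Low RNA-Seq levels of several of these transcripts were also found in another strain. The strain lacking PUB1 (pub1Δ), measured in the same series, had 29.0, 37.4 and 54.1 CPM of DED1 in its 3 RNA-Seq libraries of batch 3, but 146 in batch 4 and 80.2 in batch 1. For SRO9 the values were 8.89, 12.0 and 20.4 in batch 3, 59.0 in batch 4 and 50.3 in batch 1. In 9 of the 11 genes the 3 libraries of batch 3 were below both wt cultures of batch 1, the exceptions being CAR2 and SEC14. SEC14 stood at 168, 167 and 212 CPM there, in the range of wt, and NOP58 at 371, 359 and 378 was below wt of batch 1 but above gir2Δ. The first of these libraries is labelled pub1 in its title but gir2::KanMX in its genotype label, and it held 894 GIR2 counts against at most 16 in gir2Δ. Without it the same 9 genes were below wt of batch 1. The share of all tested genes below in this way was not computed, so the count of 9 is a description. STE3 and SAG1, low in wt of batch 4, were low in these 3 libraries of batch 3 too. Without normalisation factors, STE3 stood at 79.6, 97.3 and 101 CPM there and at 529 and 388 in wt of batch 1. SAG1 stood at 56.7, 65.6 and 74.3 CPM against 394 and 329. In TOH1, RSP5, YOR1, PMA1 and SPT6 the wt cultures of batch 4 were also below those of batch 1 in RNA-Seq. In DED1, SRO9, YBR238C and NOP58 they were above. Batches 2 and 3 each held 1 deletion strain alone, and the part of the batch in these levels was not tested. In batch 1, where both strains were present, gir2Δ culture 4 had 47.8 CPM of DED1 and 15.4 of SRO9, below the wt libraries of that batch.

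**Figure D3:**
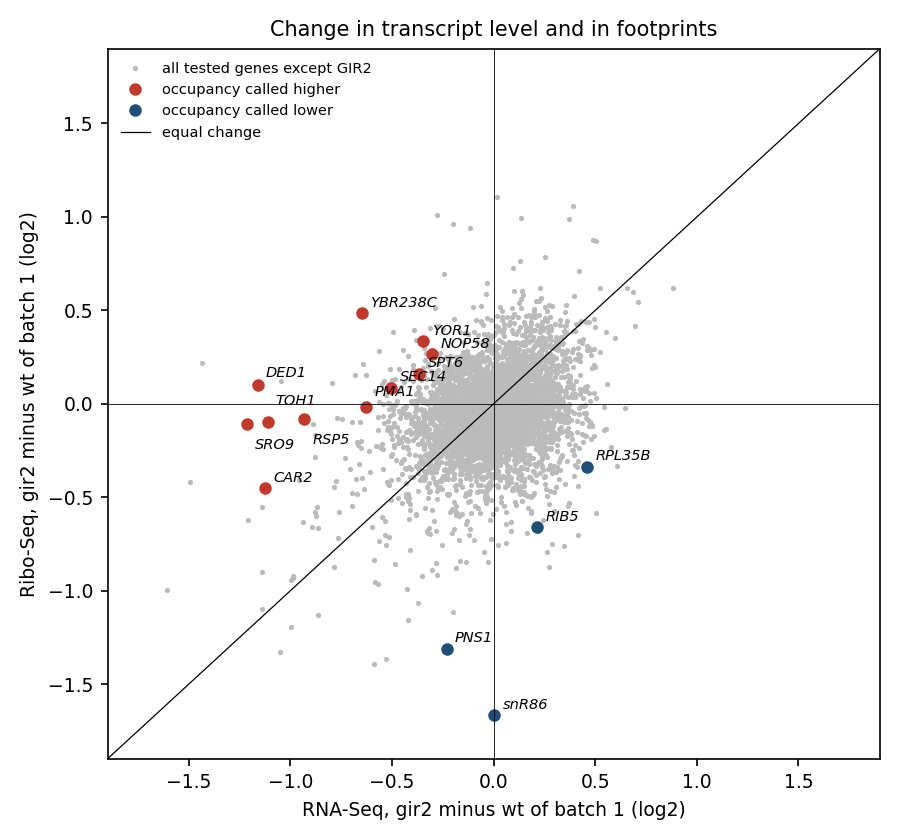
Difference between the mean of 4 gir2Δ cultures and the mean of wt of batch 1 for each tested gene except GIR2, with RNA-Seq on the x axis and Ribo-Seq on the y axis (log2), called genes in red (occupancy higher) and blue (lower). The red points lie left of 0 on the RNA-Seq axis, and the blue points lie below 0 on the Ribo-Seq axis.

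The within-batch value was taken from gir2Δ culture 4 against wt cultures 1 and 4. This fit had 50 calls, 20 higher and 30 lower, and its spread rested on the wt pair. DED1 stood at 1.54 there, SRO9 at 1.39, RSP5 at 0.82, RPL35B at -1.01 and RIB5 at -1.19, and all 15 genes kept their sign. Of the 15, 8 were called, namely DED1, SRO9, RSP5, TOH1, YBR238C, RIB5, RPL35B and snR86. With all 8 cultures and the interaction of batch and assay as terms, 37 genes were called, 7 of the 15 among them. These batch terms leave the change to gir2Δ culture 4 against wt cultures 1 and 4, so DED1 stood at 1.54 again. That fit repeats the contrast of batch 1, and the other cultures add to its spread only. The fit with all 26 libraries, given next, also has batch terms, so among the gir2Δ cultures only culture 4 carries its occupancy change. With all 26 libraries and batch terms, without culture terms, edgeR made 0 calls, and 354 genes were under 0.05 before adjustment. Leaving out wt culture 4 left 8 calls, of which DED1, SRO9, RSP5, TOH1, PNS1 and RPL35B were among the 15. Leaving out wt culture 1 left 16 calls, of which DED1, SRO9, RSP5, CAR2 and NOP58 were among the 15. Without gir2Δ culture 3 there were 28 calls, which included all 15. Without gir2Δ culture 2 there were 9, with 8 of the 15, and NOP58, PMA1, RIB5, SEC14, SPT6, YBR238C and YOR1 were lost. Without gir2Δ culture 1 NOP58, RIB5, SEC14, SPT6 and YOR1 were lost, and without culture 4 RIB5, YBR238C and YOR1. With ComBat-seq, the batch correction used in the study, followed by strain and assay alone, 412 genes were called, 12 of the 15 among them. Across all tested genes, the occupancy change of gir2Δ culture 4 against wt culture 1 and that of the batch 2 cultures against wt culture 4 had a Pearson correlation of 0.20, and 0.21 with the wt cultures exchanged.

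Without adjustment, gir2Δ and wt could also be compared by whether their cultures overlapped. All 4 gir2Δ cultures were above both wt cultures of batch 1 in 404 genes (9.03%) and below them in 511 (11.4%). They were above all 4 wt cultures in 252 genes (5.63%) and below them in 155 (3.47%). The largest uncalled genes of this kind were YLR036C, an uncharacterised reading frame, on the higher side, and PET191, PET8, AIM22, SPT14, MCO10, RSM19, PUT7 and ATG19 on the lower side. PET191, which encodes an assembly factor of cytochrome c oxidase, was at -0.98, -0.50, -0.88 and -1.14 in gir2Δ and at 0.020 to 0.34 in wt. PET8, the mitochondrial carrier of S-adenosylmethionine, was at -2.36 to -1.69 in gir2Δ and at -1.61 to -0.85 in wt. RSM19, a mitochondrial ribosomal protein gene, was at -1.22 to -0.58 in gir2Δ and at -0.29 to 0.013 in wt. The changes of these 9 genes against wt of batch 1 were 0.87 for YLR036C and -1.16 to -0.82 for the others, with edgeR adjusted p values of 0.0626 to 0.318.

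The partners of Gir2 and the Gcn2 pathway came next, a group of 9 tested genes, GIR2 included, with a median of 0.14. As fitted here, there were 0 calls among them by edgeR, DESeq2 or limma. DESeq2 gave no adjusted p to GIR2, RBG2, GCN2 and YIH1, so it could not call these genes. Before adjustment RBG1 was higher and YIH1 lower at a p under 0.05, against 244 higher and 296 lower of all 4473 genes. RBG2, which encodes the GTPase that Gir2 binds, was at 0.29, 0.16, 0.34 and 0.44 in gir2Δ and at 0.093, 0.060, -0.014 and 0.27 in wt cultures 1 to 4. The groups overlapped, and its change was 0.13 (SE 0.13, edgeR adjusted p 0.756). RBG1, for the GTPase of the other pair, was at 0.46, 0.29, 0.23 and 0.46 in gir2Δ and 0.068, -0.20, -0.096 and -0.19 in wt. Its gir2Δ cultures were above all wt cultures, but the change of 0.42 was not called (SE 0.12, edgeR adjusted p 0.153). It was called with length-corrected offsets, at 0.49 (edgeR adjusted p 0.0494), and after ComBat-seq, at 0.57 (edgeR adjusted p 0.0318), and not in the other 17 of 19 alternatives. TMA46, for the partner of Rbg1, ranged from -0.16 to 0.38 in gir2Δ and from -0.60 to 0.26 in wt. Its change was -0.078 against wt of batch 1 (SE 0.14, edgeR adjusted p 0.874) and 0.26 against all wt.

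GCN1, which encodes the sensor of collided ribosomes, had an occupancy of 0.30 to 0.53 in gir2Δ, 0.30 and 0.27 in wt of batch 1, and 0.86 and 1.06 in wt of batch 4. Its change was 0.14 against wt of batch 1 (SE 0.11, edgeR adjusted p 0.688) and -0.20 against all wt. GCN20, for the partner of Gcn1 in activating Gcn2, changed by 0.015 (SE 0.12, edgeR adjusted p 0.984) and GCN2, for the kinase, by 0.28 (SE 0.19, edgeR adjusted p 0.579). YIH1, which encodes an inhibitor of Gcn2 that binds Gcn1, was at -1.85, -1.73, -1.85 and -1.71 in gir2Δ and -1.30 and -1.48 in wt of batch 1. The gir2Δ cultures lay below these, but wt culture 2 of batch 4 was lower still at -2.67, and the change of -0.40 was not called (SE 0.18, edgeR adjusted p 0.390).

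GCN4, whose upstream reading frames keep its translation low in fed cells, was at -5.20, -5.59, -5.89 and -5.55 in gir2Δ and at -5.60, -5.27, -5.34 and -6.04 in wt cultures 1 to 4. The values overlapped, and the change was 0.26 (SE 0.19, edgeR adjusted p 0.631). The 70 tested amino acid biosynthesis genes had a median of 0.058, against -0.019 over all tested genes, with 0 calls by edgeR, DESeq2 or limma. At a p under 0.05 before adjustment 3 were higher and 5 lower, against 244 and 296 of all 4473 genes. The sign of this list's median rested on the wt pair, with a median of -0.074 and 25 genes higher without wt culture 4, and of 0.15 and 55 higher without wt culture 1. The factors that act on stalled ribosomes, 21 tested, had a median of 0.020 with 0 calls by the same tools, and 2 were higher and 0 lower at an unadjusted p under 0.05. Without wt culture 1 this median was -0.028, and with length-corrected offsets it was -0.023. Among these, SLH1, for the helicase that splits collided ribosomes, changed by 0.21 (SE 0.19, edgeR adjusted p 0.710) and HEL2, for the ubiquitin ligase that marks them, by 0.064 (SE 0.15, edgeR adjusted p 0.910). DESeq2 gave SLH1 and HEL2 no adjusted p.

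Ribosomal protein genes had lower occupancy as a group. Of the 57 tested genes of the small subunit 54 were lower and 3 higher than in wt of batch 1, with a median of -0.19, and of the 81 of the large subunit 76 were lower, with a median of -0.21. Of these edgeR called only RPL35B, and 18 small-subunit and 25 large-subunit genes were lower at a p under 0.05 before adjustment, with 0 higher, against 296 lower and 244 higher of all 4473 genes. DESeq2 also called RPL19B, at -0.43. All 4 gir2Δ cultures were below both wt cultures in 22 and 33 of them, against 11.4% of all tested genes. At the ends were RPS30B at -0.79 and RPS7B at 0.12 in the small subunit, and RPL41A at -0.90 and RPL6B at 0.19 in the large. Transcripts of these lists were higher than in wt of batch 1, by medians of 0.22 and 0.23, and footprints differed by 0.021 and 0.017. The medians were nearest 0 in gir2Δ cultures 2 and 3, at -0.10 and -0.12 for the small subunit and -0.098 and -0.11 for the large, and furthest in culture 4, at -0.35 and -0.38. Many of these genes have near-identical copies, as RPL35B does, and only uniquely mapped reads were counted, so these medians are uncertain. Multimapping reads in Ribo-Seq were 40.4 and 41.7% in wt of batch 1 and 42.6 to 48.8% in gir2Δ. Their part in the medians was not tested.

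Against all 4 wt cultures these medians were -0.088 and -0.065, and the wt cultures of batch 4 were themselves lower than those of batch 1, by -0.15 and -0.28. With offsets corrected for coding length the medians became -0.015 and -0.028, with 26 and 35 genes higher. The 75 mitochondrial ribosomal protein genes had a median of -0.23 with 65 lower. They had 0 calls by edgeR, DESeq2 or limma, though DESeq2 gave RSM19 among them no adjusted p. At an unadjusted p under 0.05, 17 of them were lower and 0 higher, against 296 and 244 of all 4473 genes. In this list transcripts differed by a median of 0.068 and footprints by -0.17. With the length correction its median was -0.075, with 22 genes higher, and without wt culture 4 it was -0.12, with 23 higher.

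Genes for ribosome biogenesis, the assembly of ribosomes in the nucleolus, went the other way. Of 141 tested, 102 were higher and 39 lower, with a median of 0.091, and 1, NOP58, was called. All 4 gir2Δ cultures exceeded both wt cultures in 30 and were below them in 9, against 9.03% and 11.4% of all tested genes. Their transcripts were higher by a median of 0.20 and their footprints by 0.30. The list ranged from IMP4 at -0.39 to NOP58 at 0.57, and DBP6 stood at its median. Length-corrected offsets left the median at 0.10 with 108 genes higher, while leaving out wt culture 4 brought it to 0.017 with 83 higher.

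Membrane transporter genes had the highest median of the lists in this fit, 0.26, which was 0.13 without wt culture 4. With all 26 libraries it was 0.16, below the 0.20 of the Gcn2 and Rbg group. Of 29 tested, 25 were higher, PMA1 and YOR1 were called, and 12 higher and 0 lower genes had an unadjusted p under 0.05, against 244 and 296 of all 4473 genes. The amino acid permease genes DIP5 and GAP1 stood at the median and at the lower end, at 0.26 and -0.38. Transcripts of the list differed by -0.23 and footprints by -0.0023. The wt cultures of batch 4 were 1.62 below those of batch 1 in this list, and 1.00 below in cell wall and glucan enzyme genes, whose median in gir2Δ was 0.080 against wt of batch 1, with 0 of 32 called by edgeR, DESeq2 or limma and 5 higher at a p under 0.05 before adjustment. That median was 0.031 without wt culture 4. Against all wt, the medians of both lists were 0.81 and 0.54.

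**Figure D4:**
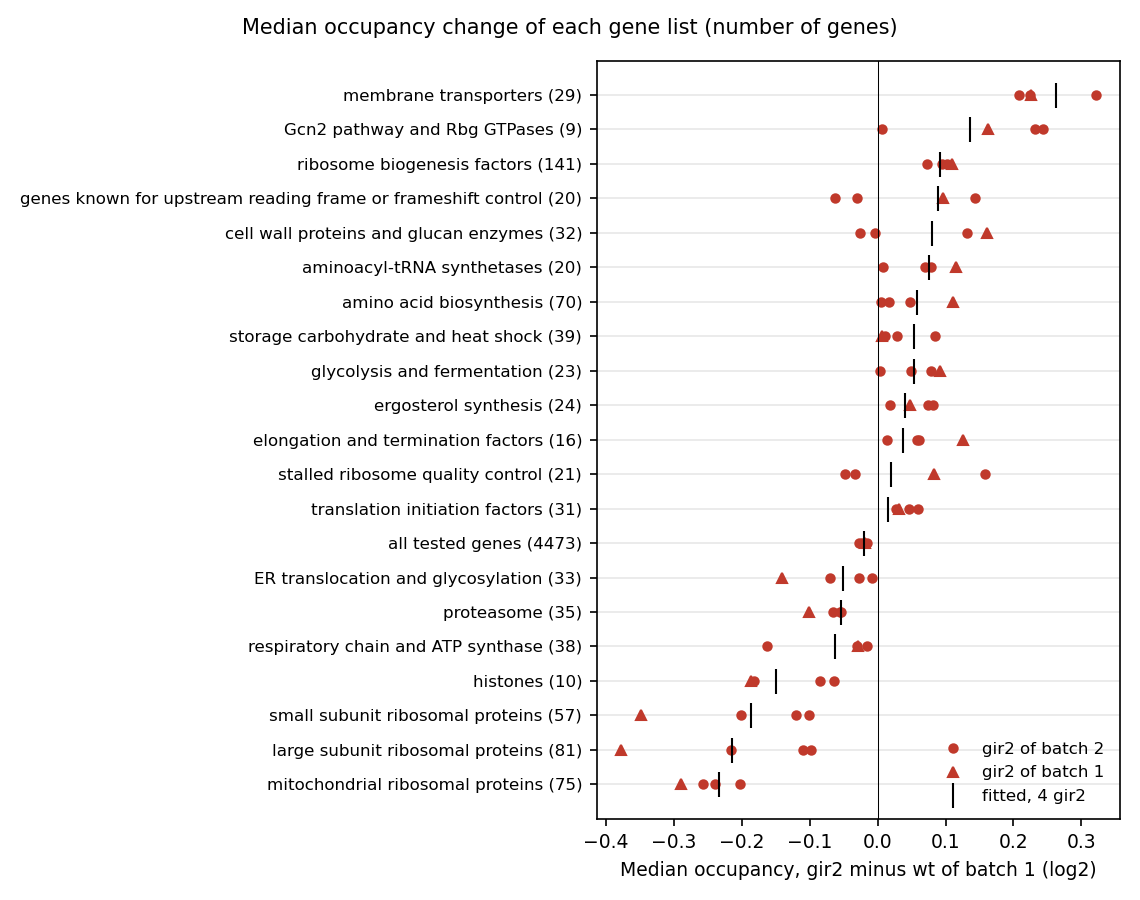
Median difference in occupancy from wt of batch 1 for each gene list and for all tested genes, with the number of genes in brackets, for each gir2Δ culture (circles batch 2, triangle batch 1) and for the fit of all 4 (bar). The 3 lists of ribosomal protein genes lie lowest, at -0.19 to -0.23 in the fit, and membrane transporters highest, at 0.26.

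In the lists not yet described the medians lay between -0.15 and 0.089. For the counts below, 244 of all 4473 tested genes were higher and 296 lower at a p under 0.05 before adjustment. Among translation factors, the 31 initiation factor genes had a median of 0.016 with DED1 the 1 call, and they ranged from TIF2 at -0.36 to DED1. Without wt culture 1 that median was 0.0998. The 16 elongation and termination factor genes had a median of 0.037 with 0 called by edgeR and 2 higher before adjustment, from EFT1 at -0.28 to HYP2 at 0.40, which DESeq2 called. Their median was -0.11 without wt culture 4 and 0.22 without wt culture 1. EFT1 and TIF2 have near-identical copies, so their counts are uncertain. Of the 20 aminoacyl-tRNA synthetase genes 17 were higher with a median of 0.076, and 0 passed edgeR, DESeq2 or limma or, before adjustment, a p of 0.05. Without wt culture 4 their median was 0.0061, with 10 higher. In the storage carbohydrate and heat shock genes transcripts were 0.31 lower and footprints 0.24 lower by the median, which left a median occupancy change of 0.054 (-0.039 without wt culture 4), from HSP12 at -0.80 to HXK1 at 0.61. Of these 39, edgeR called 0 and DESeq2 1, HSP60, and 7 were higher before adjustment. The 10 histone genes had a median of -0.15, which was 0.071 with length-corrected offsets, with 0 called by edgeR, DESeq2 or limma and 2 lower before adjustment.

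Coding length varied with the change in occupancy. Over 4461 coding genes, the Spearman correlation of coding length with the change was 0.39. The genes were ordered by length in 5 classes of near-equal size, with median lengths of 471, 882, 1290, 1812 and 2918 bases. Their median changes in occupancy were -0.17, -0.079, -0.0075, 0.051 and 0.097. The trend was present in RNA-Seq, where the class medians were 0.13, 0.058, 0.0060, -0.046 and -0.10, and small in Ribo-Seq, where they were -0.062, -0.039, -0.029, -0.013 and -0.014. Correlations were -0.39 with the RNA-Seq change and 0.087 with the Ribo-Seq change. The gir2Δ cultures differed, with correlations of 0.41, 0.24, 0.19 and 0.36 for cultures 1 to 4. Of the wt cultures of batch 4, culture 3 rose with length, from -0.24 to 0.16, and culture 2 did not, with -0.082, -0.11, -0.12, -0.18 and 0.0012 in the 5 classes, whereas wt cultures 1 and 4 differed with a correlation of 0.081. Genes share libraries, so these values describe the libraries and are not tests. Of the 11 higher genes 8 were longer than the median of all genes. With offsets corrected for length, 28 genes were called, 23 higher and 5 lower, with 13 of the 15 among them, SPT6 and YOR1 being lost.

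**Figure D5:**
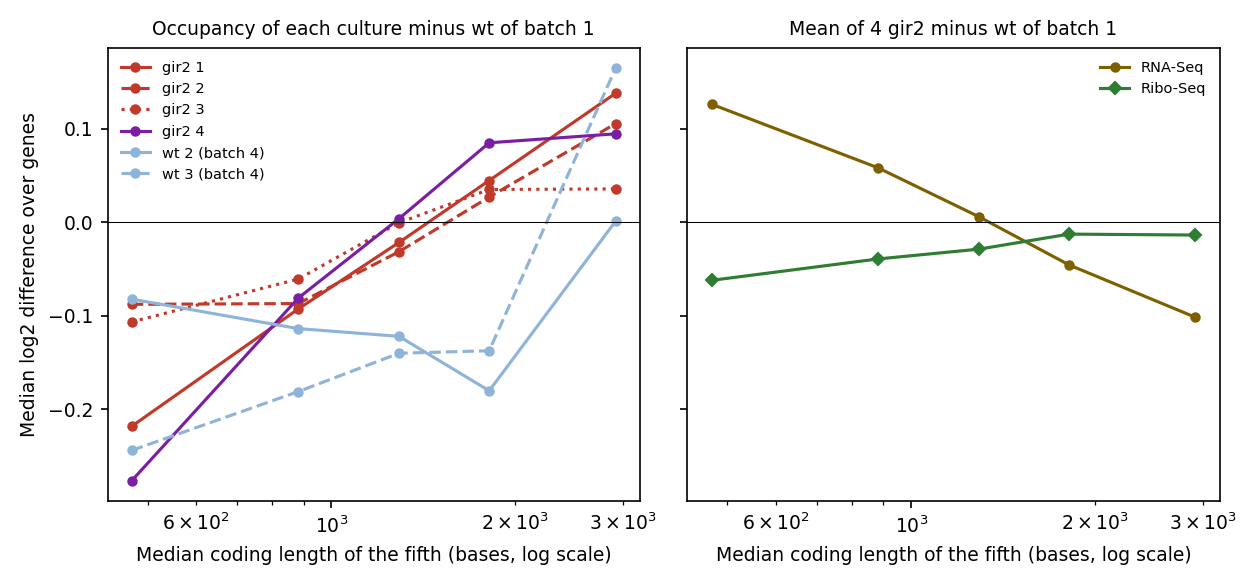
Median log2 difference from wt of batch 1 in 5 classes of coding length (log axis), left for the occupancy of each gir2Δ culture (batch 1 in purple) and each wt culture of batch 4 (blue), right for RNA-Seq and Ribo-Seq as the mean of 4 gir2Δ cultures. The gir2Δ lines rise with length on the left, and on the right the RNA-Seq line falls from 0.13 to -0.10 while the Ribo-Seq line stays between -0.062 and -0.013.

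Rbg1 and Tma46 are known for relieving ribosome pauses at stretches rich in lysine and arginine, so these codons were counted. The largest number of lysine and arginine codons in any 10 in a row was 8 or more in 74 coding genes (1.66%), and 2 of the 11 higher genes, NOP58 and SPT6, were among these. The stretch of SPT6 is shown from codon 76 with the lysine and arginine codons in capitals, on the coding strand, beside that of RPL35B, a gene with lower occupancy, from codon 81. The sequences are those of RefSeq, assembly R64.
SPT6: tccAAAAAAAGAAGAAAAcatAAAAGAAGA
RPL35B: AGAgccAAGAAGaccAGAgctttgAGAAGA
Over the 74 genes the median change in occupancy was 0.060 with 2 called, and over the 3452 genes with 5 or fewer such codons it was -0.028 with 10 called. Genes with 8 or more had a median coding length of 1748 bases and those with 5 or fewer of 1188. In the middle class of length the median was 0.039 for 46 genes with 7 or more, -0.034 for 121 with 6 and -0.0016 for 725 with 5 or fewer, so it did not follow the count. The 69 genes with 6 or more lysine or arginine codons in an unbroken row had a median of -0.013. The 401 genes with 3 or more proline codons in a row, another known site of slow elongation, had a median of 0.014 with 1 called, PNS1, which was lower.

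The 200 bases after the stop codon were examined after the called genes were known, so the counts are descriptions. All 11 higher genes had a run of 6 or more T there on the coding strand, as did 1996 of 4461 coding genes (44.7%). A run of 8 or more was present in 7 of the 11 and in 18.3% of all. Of the 3 lower coding genes PNS1 and RPL35B had a run of 6, and none was longer. YBR238C, YOR1 and SPT6 among the higher genes also had a run of 6. The percentage of T in these bases was above the median of all coding genes in all 11 higher and all 3 lower genes, against 49.8% of all. The windows below show the longest run in capitals for the 3 genes with the most stable calls and for SEC14, which has a run of 12. RIB5 is shown as a lower gene and has the shortest run of the 3, with 5. They lie at chrXV:724853-724882 (plus strand) for DED1, chrIII:57216-57245 (minus) for SRO9, chrV:412623-412652 (plus) for RSP5, chrXIII:426216-426245 (plus) for SEC14 and chrII:727333-727362 (minus) for RIB5, all in RefSeq R64.
DED1: ttggccccataTTTTTTTTattttctcact
SRO9: ttttttgTTTTTTTTTTTTTTTTTgttttt
RSP5: tccgcaccaaTTTTTTTTTTatttatggtg
SEC14: ctttttttaTTTTTTTTTTTTcttccactc
RIB5: tttcataaacgcaTTTTTgaagtgatctct
Over all coding genes the longest run correlated by Spearman's measure with the occupancy change at 0.13, with the RNA-Seq change at -0.16 and with the Ribo-Seq change at -0.012. Genes with a run of 9 or more, 556 in all, had a median change of 0.040, and the 1301 with 4 or fewer had one of -0.049. In RNA-Seq these medians were -0.077 and 0.032, and in Ribo-Seq -0.052 and -0.030. Within the middle class of coding length the occupancy medians were 0.087 in 120 genes and -0.040 in 262, and in the 4 gir2Δ cultures the former was 0.082, 0.033, 0.091 and 0.10.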

How the data were processed

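The deposited counts were raw reads per gene on the gene-sense strand. Per the labels and the study's methods, the authors trimmed adapters (cutadapt 2.10), collapsed identical reads of Ribo-Seq, discarded rRNA reads, and counted uniquely mapped reads with STAR 2.7.9a on Ensembl R64-1-1. Names, coordinates and sequences came from RefSeq of the same assembly, which matched 4463 of the 4473 tested genes.

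In R 4.3.3, genes with 10 CPM or more in at least 4 libraries of each assay were kept, 4473 of 6866 with counts. TMM factors were computed within each assay. The filter and the factors used all 26 libraries, those of pub1Δ included. Occupancy was tested with edgeR 4.0.16 as the interaction of strain and assay, with a term for each culture and Benjamini-Hochberg adjustment over all tested genes. This replaced the batch correction of the study, which is among the alternatives. Normalised CPM used the TMM factors and log2 CPM a prior count of 2. Fits were tested on simulated data. Alternatives used DESeq2 1.42.0, limma 3.58.1 and sva 3.50.0.

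The libraries of a culture come from the same lysate per the labels. Their deviations from the group mean correlated at 0.087 to 0.27, each best with its own partner. The comparison, gene lists and naming rule were chosen with earlier results of these data known. The rule named called genes, up to 12 per direction, filled with the largest genes at an unadjusted p under 0.05 whose gir2Δ and wt cultures did not overlap, 11 fixed genes, and from each list the genes at the median and at the ends. The sequence of 1 stretch of codons is not reported here.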

Additional observations from a re-analysis of the deposited data

Results flagged for a closer look

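In 3 of 70 groups of 4 cultures of a named gene, 1 culture stood apart by Dixon's criterion, which chance alone meets in about 1 in 20 groups. The occupancy of TOH1 was 2.35 in gir2Δ culture 1 and at most 2.06 in the other gir2Δ cultures. That of NOP58 was 0.61 in wt culture 1 and at most 0.24 in the other wt cultures, which belong to 2 batches. That of snR86 was -4.01 in gir2Δ culture 4 and at least -2.23 in the others, where it rested on 6 Ribo-Seq reads in culture 4.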

How the results depend on the processing

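Against wt of batch 1, the count of 15 called genes became 9 without a replicate block (no culture terms), 28 with offsets corrected for coding length, 7 with limma on the occupancy of each culture, 72 with no filter, 412 with ComBat-seq, 50 in batch 1 alone, 37 with all 8 cultures and batch terms, and 0 by edgeR with all 26 libraries, where 354 genes had an unadjusted p under 0.05. Leaving out 1 culture in turn gave 8 to 28. DESeq2 gave 13, median-of-ratios factors 16, a filter at 30 CPM 12, counts of both strands 16 and a term for batch 4 alone 16. Against all wt, the count of 9 became 2 without a replicate block (no culture terms), 39 with DESeq2, 942 with ComBat-seq, and 2 to 37 on leaving out 1 culture, 37 being without wt culture 1. The replicate number as a block across strains also left 2. It was not read as pairing, since same-numbered gir2Δ and wt cultures deviated together by -0.12 to 0.071 and 1 of 4 correlated best with its own number. All 15 genes kept their sign in each fit against wt of batch 1 that tested them. Of genes never called, the change of GCN1 reversed to -0.035 with all 26 libraries and -0.045 with the length correction, that of GCN20 to -0.035 with the length correction and by leave-one-out to between -0.034 and 0.064 (below 0 without gir2Δ culture 1 or 4 or wt culture 4), that of HEL2 by leave-one-out to between -0.027 (without wt culture 4) and 0.15, and that of GIR2 to -0.46 with ComBat-seq. That of TMA46 reversed to 0.20 with all 26 libraries, 0.16 in batch 1 alone and with all 8 cultures and batch terms, 0.14 with ComBat-seq, and by leave-one-out to between -0.15 and 0.026 (without gir2Δ culture 1). The TMA46 fits with batch terms or batch 1 alone draw on gir2Δ culture 4, whose TMA46 occupancy lay 0.16 above wt of batch 1. Other causes of these differences were not tested. Depth limits the genes near the filter, such as PET8 and AIM22, at 5.34 to 19.8 CPM in Ribo-Seq.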

Other observations

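In batch 1 alone, genes outside the 15 were among the 50 calls, and they were chosen after their values were seen. SCR1, the RNA of the signal recognition particle, stood at -2.096, and the small nucleolar RNAs snR30 and snR84 at -2.45 and -2.01, where reads of non-coding RNA in the monosome fraction are not footprints of translation. DHH1, which encodes a DEAD-box helicase of mRNA decapping, rose by 1.35, WHI3, an RNA-binding protein gene, by 1.12, and MPT5, a Pumilio-family RNA-binding protein gene, by 1.28. Other genes rose as much or more, with SRL1 at 1.72, the largest rise, SNF3 at 1.47 and KIC1 at 1.33. Among the lower calls were ribosomal protein genes, such as RPS29A at -1.10, RPS30B at -1.03 and RPL42B at -0.91. These are values of 1 gir2Δ culture against 2 wt cultures by edgeR, whose spread rests on the wt pair.

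Over all coding genes, GC content of the coding sequence correlated by Spearman's measure with the occupancy change at -0.25, -0.19, -0.010 and -0.097 in gir2Δ cultures 1 to 4, and with the difference between wt cultures 1 and 4 at 0.29. The wt RNA-Seq level correlated with the change at 0.092. Among all tested features 21S_RRNA, a mitochondrial ribosomal RNA, stood highest at 1.64 (SE 0.43, edgeR adjusted p 0.110). It was not called, and its gir2Δ and wt cultures overlapped.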
